A study of Mus musculus with 59 samples.

Results

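Embryonic stem cell lines made by nuclear transfer from an induced pluripotent clone were compared with embryonic stem cells that had been through neither reprogramming nor nuclear transfer. The members were chosen by their labels and are 8 of the 59 arrays of the series, 1 array per line. NT-4, NT-5 and NT-6 are the 3 nuclear-transfer embryonic stem cell (NT-ESC) subclones from cloned blastocysts of Adeno-2. Adeno-2, shown on 1 array, is clone 2 of the Adeno-iPSC, induced pluripotent stem cells of fetal liver origin. ESC-1 to ESC-4 are 4 clones labelled as targeted KH2 embryonic stem cells (ESC), a line built to carry transgenes that doxycycline switches on. Culture was the same for all by the labels, on irradiated feeder fibroblasts in medium with LIF and 15% FBS, and feeders were depleted by preplating for 45 minutes. The sources used here give no strain, sex, passage number or animal age for these lines, nor do they say whether Adeno-2 carries the targeted loci of KH2. All 3 NT-ESC descend from 1 donor clone, so that donor clone, line background and nuclear transfer cannot be told apart. The labels also do not say that the clones were separate cultures through to RNA, so p-values measure only the spread between these lines, which may be technical.

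In nuclear transfer a nucleus is placed in an enucleated oocyte, the oocyte resets much of its chromatin, and a stem cell line is derived from the resulting blastocyst. Imprinted genes are expressed from 1 parental allele under marks laid down in the germ line, and these marks are meant to survive that resetting. In the imprinted Dlk1-Dio3 region the maternal chromosome makes the noncoding RNAs Meg3 and Rian, and the paternal chromosome makes Dlk1 mRNA. A further state known from mouse ESC cultures is the 2-cell-like state, in which a small share of cells transcribes genes of the early embryo.

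Values are log2 signals in which each array averages close to 0, and differences are NT-ESC minus ESC in log2 units, where 1 unit is a doubling. The label of a pluripotent line held in the marker genes. Over 7 measured pluripotency markers the mean was 4.66 to 4.71 in NT-ESC, 4.61 in Adeno-2 and 4.55 to 4.76 in ESC. Marker means were below -1.3 in NT-ESC for primitive endoderm, trophoblast, blood and hepatocyte genes alike. The 3 NT-ESC arrays were close to each other, with a correlation over all genes of 0.997 to 0.998. ESC-2 and ESC-3 were the closest pair of all, at 0.999, whereas ESC-1 stood apart from the other ESC at 0.986 to 0.987. ESC-1 was nearer to the NT-ESC arrays than to the other ESC, at 0.988 to 0.989. The other ESC were about as near to the NT-ESC arrays or nearer, at 0.988 to 0.992. Many results are therefore also given with single arrays left out, and some with ESC-2 and ESC-3 averaged into 1 sample.

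Of 11807 genes, 468 passed an adjusted p of 0.05 (limma moderated test, Benjamini-Hochberg over all genes), which is 3.96% of those tested. Of these, 236 were higher in NT-ESC and 232 lower, or 2% and 1.96% of the genes. By at least 2-fold, 25 were higher and 60 lower, and the median size of a passing difference was 0.62. The number depended on the arrays used. It was 2650 without ESC-1 (22.4% of all genes), 548 without ESC-4 (4.64%), 128 without ESC-2 (1.08%) and 121 without ESC-3 (1.02%). It was 44 without NT-4 (0.373%), 94 without NT-5 (0.796%) and 45 without NT-6 (0.381%), and each count of a gene list without an array stands against the share for that array. With ESC-2 and ESC-3 averaged into 1 sample it was 130. In all 7 fits that left out 1 array, 33 genes passed, and 13 of the 30 genes named for the largest differences were among them. These 13 were Rian, Meg3, Mid1, Apoa2, B3galt6, Cxcl12, Usp17la, AF067061, Uty, Arg2, D13Ertd608e, Peg3 and Mrc1, and the other 17 lost their call in at least 1 of those fits. Of the 30, 15 passed without NT-4, 20 without NT-5 and 13 without NT-6. With ESC-1 left out all 30 passed, with ESC-2 left out 21, with ESC-3 left out 23 and with ESC-4 left out 27. By chromosome, 2.26% to 5.65% of genes passed, and the median reading against the ESC mean ran between -0.06 and 0.05 in NT-ESC and between -0.05 and 0.04 in single ESC lines.

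**Figure D1:**
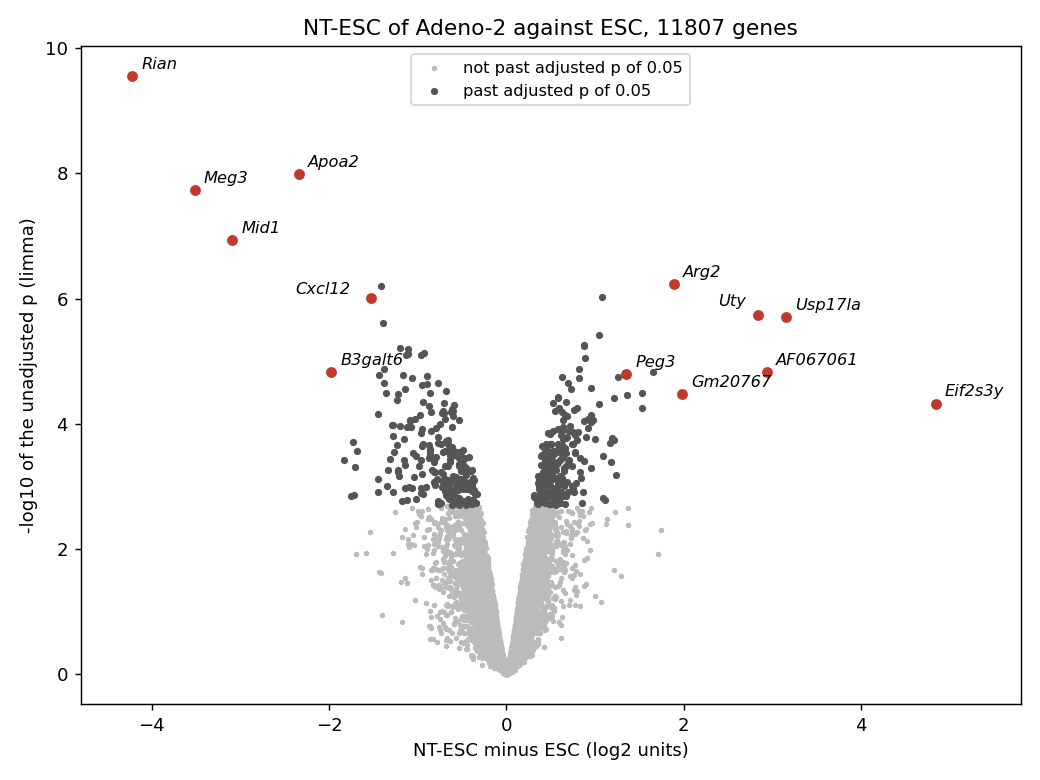
NT-ESC minus ESC in log2 units (x) against the negative log10 of the unadjusted limma p (y), 1 point for each of 11807 genes; dark points passed the adjusted p of 0.05. Rian (-4.22) and Meg3 (-3.51) lie far to the left and Eif2s3y (4.85) far to the right, and most passing genes lie close to the centre.

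The noncoding RNAs of the Dlk1-Dio3 region on chromosome 12 were far lower in NT-ESC. Rian read -0.67, -0.88 and -0.47 in NT-4, NT-5 and NT-6, 1.26 in Adeno-2, and 3.49, 3.45, 3.52 and 3.71 in ESC-1 to ESC-4. Meg3 read -0.37, -0.67 and -0.59 in the NT-ESC lines, 0.27 in Adeno-2, and 3.38, 2.81, 2.95 and 2.74 in the ESC lines. Both transcripts were low in every NT-ESC line and high in every ESC line, with no overlap, and Adeno-2 lay between them. Rian averaged -0.68 ± 0.20 in NT-ESC (SD, n = 3) and 3.54 ± 0.11 in ESC (SD, n = 4), an 18.6-fold lower level (difference -4.22, SE 0.11, adjusted p = 3.29e-06). Meg3 averaged -0.54 ± 0.15 in NT-ESC and 2.97 ± 0.29 in ESC, 11.4-fold lower (difference -3.51, SE 0.16, adjusted p = 7.27e-05). In RNA from whole cultures, fewer cells with a transcript and less of it per cell cannot be told apart.

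The NT-ESC readings of both lay below that of the donor clone. On a line with the NT-ESC mean at 1 and the ESC mean at 0, the 1 array of Adeno-2 lay at 0.54 for Rian and at 0.77 for Meg3. Rian in all 3 NT-ESC lines also lay below every one of the 48 iPSC clones of the series, whose lowest reading was 0.22. So did Rian in NT-7, NT-8 and NT-9, the NT-ESC of other donors, at -0.79, 0.11 and -0.35. Meg3 in NT-4, NT-5 and NT-6 lay below 46 of those clones, and it read 3.25, 2.55 and 2.05 in NT-7, NT-8 and NT-9. All further probe sets pointed the same way. The 4 probe sets of Meg3 differed by -1.58 to -3.51 and the 3 of Rian by -3.91 to -4.23, each without overlap between the groups.

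Dlk1, made from the paternal chromosome of the same region and coding for a transmembrane protein related to Notch ligands, did not pass. It read -1.54, -1.58 and -1.51 in NT-ESC, -1.30 in Adeno-2, and -0.25, -1.18, -1.16 and -1.48 in ESC. The groups lay next to each other without overlapping, and ESC-1 was far above the other ESC (difference -0.53, SE 0.26, adjusted p = 0.281). Under 15 alternative settings, those that left out 1 array among them, the difference ran from -0.68 to -0.27 and passed in 0.

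The letters upstream of 3 genes are shown as examples of transcripts that passed: Meg3, lower in NT-ESC, and the imprinted Peg3 and the early-embryo gene Usp17la, both higher. Each is the stretch of 250 bases before the start that the RefSeq promoter table uses, read 5′ to 3′ on the gene's strand, on GRCm38.p6. Meg3 is at chr12:109540746-109540995 on the plus strand, Peg3 at chr7:6730420-6730669 on the minus strand, and Usp17la at chr7:104856766-104857015 on the plus strand. The start used for Peg3 lies inside the gene's annotated extent, so that 43 of its 250 bases overlap that extent, and the other 2 stretches end where the gene begins. Capitals mark the cyclic AMP response element TGACGTCA and the TATA box TATAAA, both searched on both strands.
Meg3: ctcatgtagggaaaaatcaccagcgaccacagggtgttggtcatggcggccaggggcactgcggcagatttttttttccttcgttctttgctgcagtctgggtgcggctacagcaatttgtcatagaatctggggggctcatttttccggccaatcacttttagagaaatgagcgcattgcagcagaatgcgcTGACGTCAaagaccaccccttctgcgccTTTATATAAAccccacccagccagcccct
Peg3: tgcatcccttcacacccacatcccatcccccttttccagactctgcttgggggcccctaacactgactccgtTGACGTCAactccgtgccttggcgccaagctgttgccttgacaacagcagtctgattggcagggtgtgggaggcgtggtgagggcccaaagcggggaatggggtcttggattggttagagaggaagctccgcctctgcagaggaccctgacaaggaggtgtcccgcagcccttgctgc
Usp17la: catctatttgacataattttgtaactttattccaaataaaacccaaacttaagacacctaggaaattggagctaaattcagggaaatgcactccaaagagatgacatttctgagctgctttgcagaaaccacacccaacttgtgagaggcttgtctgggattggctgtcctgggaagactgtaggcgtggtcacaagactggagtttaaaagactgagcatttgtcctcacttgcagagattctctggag
Meg3 held 1 TGACGTCA, beginning 57 bases before the start used, and 2 TATAAA matches on opposite strands that overlap in 1 run. Peg3 held 1 TGACGTCA, beginning 178 bases before the start used, and no TATAAA, and Usp17la held neither. Among 32851 promoter windows of this length, 1.55% held TGACGTCA, 12.4% held TATAAA and 0.119% held both. CG pairs, the sites that DNA methylation acts on, numbered 10 in Meg3, 8 in Peg3 and 1 in Usp17la, and 37.8%, 43% and 92.1% of windows held at least as many as each. Methylation itself was not measured on these arrays.

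Outside that region, 2 of 35 measured imprinted genes were higher in NT-ESC and 0 were lower, against 3.96% of all genes that passed in either direction. At an unadjusted p of 0.05 the counts were 5 higher and 4 lower, where 12.5% of all genes were higher and 9.13% lower, 21.7% in all. Peg3, a paternally expressed zinc-finger gene on chromosome 7, read 2.16, 1.87 and 1.85 in NT-ESC, 2.05 in Adeno-2, and 0.41, 0.82, 0.82 and 0.37 in ESC. The donor reading thus lay within the NT-ESC range and above every ESC line (difference 1.35, SE 0.15, 2.55-fold, adjusted p = 0.00653), and a further probe set gave 1.28. Usp29, the neighbour of Peg3 that shares its start region in mouse, passed with 0.49 (adjusted p = 0.0343), but another of its probe sets gave -0.35 and did not pass. The Usp29 call was also lost without any 1 of the arrays other than ESC-1, with adjusted p between 0.0583 and 0.142. Without ESC-1, 7 imprinted genes were higher and 3 lower, against 22.4% of all genes. The median difference over the list was 0.05, beside 0.03 over all genes.

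All measured genes of the 2-cell-like state were higher in NT-ESC. Of 12 listed, 4 were measured and all 4 passed upward, beside 2% of all genes, with a median difference of 1.08. Usp17la, which codes for a deubiquitinating enzyme, read 1.81, 1.49 and 2.06 in NT-ESC, 0.74 in Adeno-2, and -1.34, -1.87, -1.54 and -0.71 in ESC. No line of either group crossed into the other (difference 3.15, SE 0.26, 8.89-fold, adjusted p = 0.00232), and Adeno-2 again lay between. Tcstv1, a gene first described at the 2-cell stage, read -1.69, -2.23 and -1.85 in NT-ESC, -2.51 in Adeno-2, and -3.83, -3.05, -3.59 and -3.36 in ESC, a difference of 1.53. Zfp352 (0.62) and Tcstv3 (0.45) passed with smaller differences. In NT-7, NT-8 and NT-9, the NT-ESC of other donors, Usp17la read 1.005, -1.771 and -2.087, and Tcstv1 -2.545, -2.930 and -3.454. Zfp352 read -2.157, -2.421 and -3.514 in these lines, and Tcstv3 -3.238, -3.796 and -3.814. Zfp352 in NT-7 and NT-8 and Tcstv3 in NT-7 thus lay above NT-4, NT-5 and NT-6. Tcstv1, Zfp352 and Tcstv3 all had low readings, and a filter on low signals left only 1 gene of the list, Usp17la, which passed. Usp17la alone of the 4 passed in every fit that left out 1 array. The count of the list was 1 without NT-4 or NT-6, 2 without ESC-2 or ESC-3, 3 without NT-5 or ESC-4 and 4 without ESC-1. It was 2 with ESC-2 and ESC-3 averaged, 3 with each array centred on its median and 1 with a replicate block. For Tcstv1 the adjusted p was 0.0612 without NT-4 and 0.0719 without NT-6.

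Tcstv1 and Tcstv3 have as neighbours on chromosome 13 the genes D13Ertd608e, Gm20767 and AF067061, and no other measured gene lies among the 5. This stretch was picked out after its values were seen, and its ends were set at 2 of the passing genes, D13Ertd608e and Tcstv3. All 5 passed upward, beside 2% of all genes, but that count follows from the choice and is no result about the stretch. AF067061 read 2.87, 2.17 and 2.95 in NT-ESC, 1.93 in Adeno-2, and -0.73, -0.55, -0.39 and 0.55 in ESC (difference 2.94, SE 0.32, adjusted p = 0.00653). Gm20767 read 0.85, 0.33 and 1.10 in NT-ESC, -0.01 in Adeno-2, and -1.28, -1.51, -1.40 and -0.67 in ESC (difference 1.98, with adjusted p = 0.0567 without NT-4 and 0.0561 without NT-6). D13Ertd608e read -1.27, -1.88 and -1.40 in NT-ESC, -2.63 in Adeno-2, and -3.38, -3.10, -3.34 and -2.85 in ESC (difference 1.65). Adeno-2 lay above every ESC line and below every NT-ESC line for each of the 5. Members of this cluster are close copies of each other, and the probe set of AF067061 is of a class that can bind related transcripts, so the 5 readings are not independent.

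**Figure D2:**
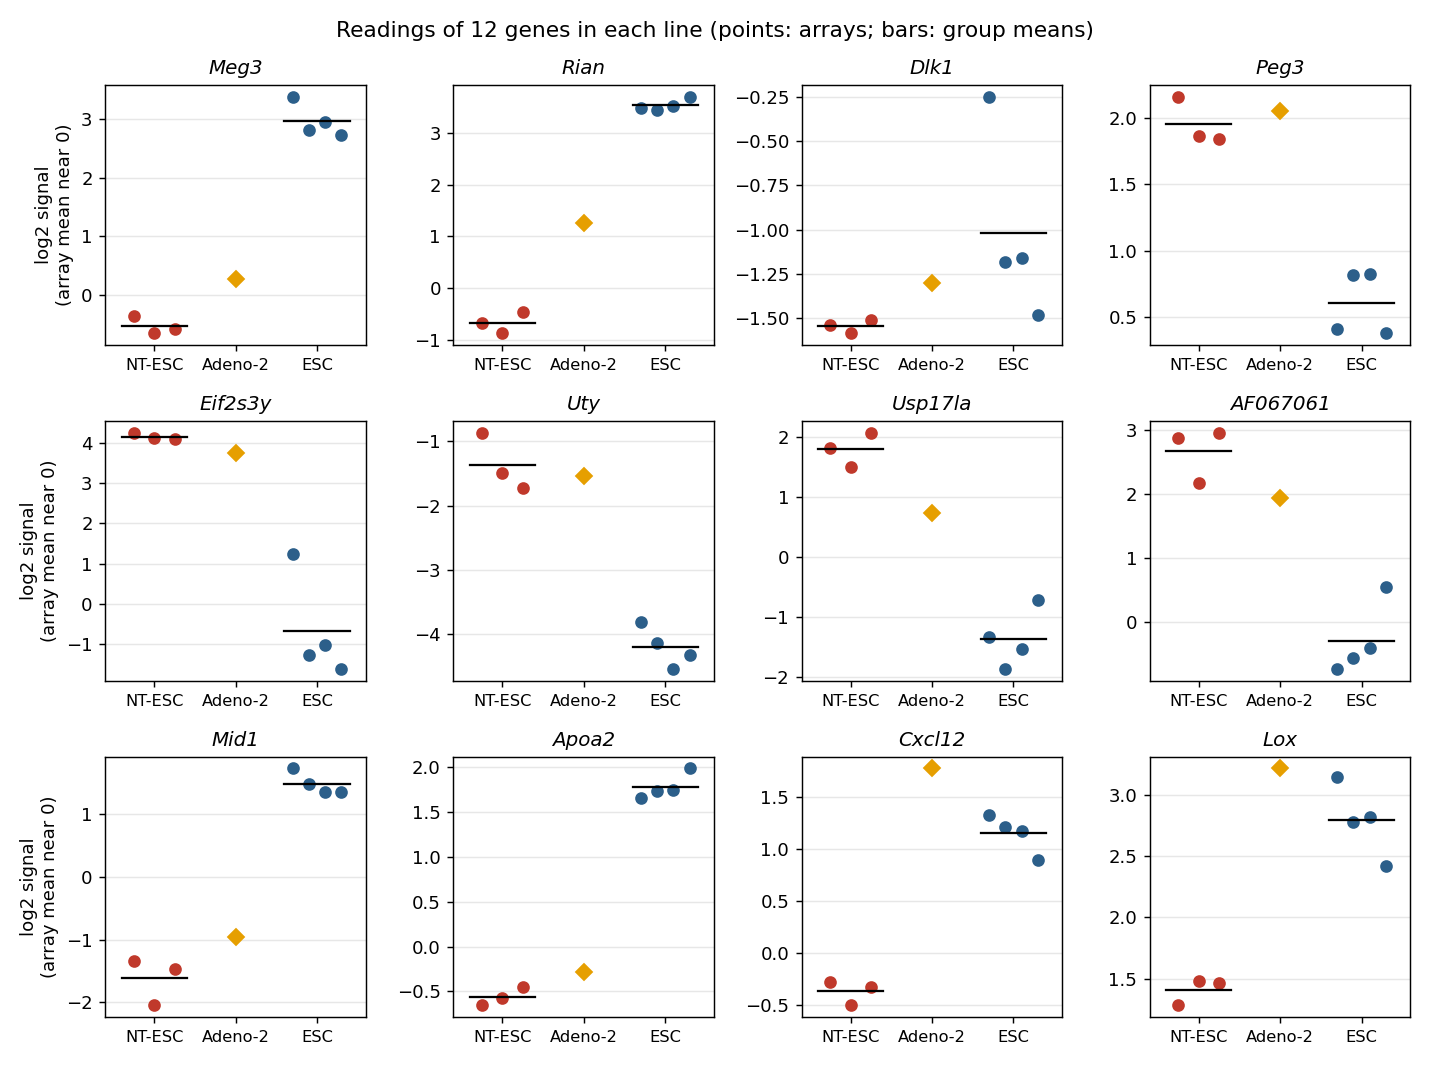
Log2 signal of 12 genes on each array, with NT-ESC (red), Adeno-2 (yellow) and ESC (blue) from left to right and bars at group means; each panel has its own axis. Meg3 and Rian are low in every NT-ESC line, Usp17la and AF067061 are high in every one, and Cxcl12 and Lox are low in NT-ESC while Adeno-2 is above all 4 ESC lines.

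Of 7 measured sex-linked genes 2 passed, 28.6% against 3.96% of all genes. Both are Y-linked and were higher in NT-ESC and in the donor. Eif2s3y, the Y-encoded gamma subunit of translation factor eIF2, read 4.27, 4.13 and 4.10 in NT-ESC, 3.76 in Adeno-2, and 1.24, -1.29, -1.04 and -1.64 in ESC. This was the largest difference of all (4.85, SE 0.61, adjusted p = 0.00967), and ESC-1 read well above the other ESC lines. The Eif2s3y call was lost without NT-4 (adjusted p = 0.0592) and without NT-6 (adjusted p = 0.0643). Over the 48 iPSC clones the median of Eif2s3y was 2.443, with readings from -1.794 to 4.115. In NT-7, NT-8 and NT-9, the NT-ESC of other donors, it read -2.399, -3.639 and -1.705. Uty, the Y-linked relative of the histone demethylase gene Kdm6a, read -0.86, -1.50 and -1.73 in NT-ESC, -1.53 in Adeno-2, and -3.81, -4.13, -4.54 and -4.31 in ESC (difference 2.83, adjusted p = 0.00232). Kdm5d, another Y-linked histone demethylase gene, read near the bottom of the scale in all lines, -2.67 to -2.50 in NT-ESC, -2.58 in Adeno-2 and -2.85 to -2.51 in ESC. Eif2s3x, the X-linked partner of Eif2s3y, differed by -0.01 (adjusted p = 0.948), and the X-inactivation RNA Xist by 0.11 (adjusted p = 0.658), though other probe sets of Xist gave -0.51 and -0.06.

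Mid1, an X-linked gene for a microtubule-bound ubiquitin ligase, was low in the cloned lines. It read -1.34, -2.04 and -1.47 in NT-ESC, -0.95 in Adeno-2, and 1.72, 1.47, 1.35 and 1.34 in ESC, 8.5-fold lower (difference -3.09, SE 0.18, adjusted p = 0.000341). Apoa2, which codes for a lipoprotein component made in liver, read -0.65, -0.57 and -0.45 in NT-ESC, -0.28 in Adeno-2, and 1.66, 1.74, 1.75 and 1.99 in ESC (difference -2.34, SE 0.10, adjusted p = 6.08e-05). For both genes the donor array sat beside the NT-ESC lines, and all 3 NT-ESC lines lay below all 48 iPSC clones. Some NT-ESC of other donors also lay below the lowest clone, at -0.14 for Mid1 and 1.59 for Apoa2. Mid1 read 0.49, -0.39 and -0.93 in NT-7, NT-8 and NT-9, and Apoa2 read 0.44, 1.13 and 1.99. Of the 16 measured hepatocyte genes, Apoa2 was the only one that passed downward, and Foxa1, a transcription factor of liver and gut, the only one that passed upward (0.64). These 2 were 12.5% of the list, against 3.96% of all genes. Without ESC-1, 1 gene of the list was higher and 2 were lower, against 22.4% of all genes. The Foxa1 call was lost without NT-4, NT-6 or ESC-2 (adjusted p 0.0526 to 0.0866). The level of the classic hepatocyte markers Alb, Afp, Ttr and Apoa1 was low in every group, with means of -1.78 to -1.59 in NT-ESC, -2.09 in Adeno-2 and -1.88 to -1.68 in ESC.

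Adeno-2 was placed on the same line, with the NT-ESC mean at 1 and the ESC mean at 0, for each of the 30 genes with the largest passing differences, 15 in each direction. Both positions are measured from the same ESC arrays and are not independent, and 1 donor array has no error of its own. For 19 genes Adeno-2 lay on the NT-ESC side, at 0.667 or more, for 7 between, and for 4 on the ESC side, at 0.333 or less. Usp17la fell just short of the upper limit, and D13Ertd608e and B3galt6, both at 0.33, lay just under the lower one. For 9 of the 30 the donor lay past the NT-ESC mean.

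Among the higher genes shared with the donor was Arg2, a mitochondrial arginase, at -1.49, -1.72 and -1.45 in NT-ESC, -1.92 in Adeno-2, and -3.16, -3.58, -3.66 and -3.38 in ESC. All 3 NT-ESC lines exceeded all 48 iPSC clones (difference 1.89, SE 0.13, adjusted p = 0.00122). Mitf, the transcription factor of pigment cells, read 2.66, 2.81 and 2.67 in NT-ESC, 3.22 in Adeno-2, and 1.49, 1.09, 1.10 and 1.75 in ESC (difference 1.36). A dimmer Mitf probe set gave 0.30 and did not pass, and the call was lost without NT-4 (adjusted p = 0.0554) and without NT-6 (adjusted p = 0.0581). Donor readings at or past the NT-ESC mean also marked Robo4, a guidance receptor of endothelium (1.53), Mrc1, the mannose receptor of macrophages (1.26), Zfp936, a zinc-finger gene (1.24), and Cdx1, a caudal homeobox gene (1.22). Cdx1 read -0.96, -0.58 and -1.08 in NT-ESC and far higher, 0.92, in Adeno-2 itself. Of the 48 iPSC clones, 26 read below all 3 NT-ESC lines for Zfp936 and 17 above them all. These counts were 29 and 4 for Robo4, 41 and 0 for Mrc1, and 47 and 0 for Cdx1. The Robo4 call was lost without NT-6 (adjusted p = 0.0581), and the calls of Zfp936 and Cdx1 without any NT-ESC line or without ESC-2, and for Zfp936 without ESC-3 (adjusted p 0.0556 to 0.138).

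Lower genes shared with the donor included several that spread widely among the ESC lines. Fxyd6, a regulator of the sodium pump, read 1.20, 1.48 and 0.81 in NT-ESC, 1.03 in Adeno-2, and 2.32, 3.42, 3.57 and 2.67 in ESC (difference -1.83, adjusted p = 0.0219). The donor also read with NT-ESC for Dner, a transmembrane Notch ligand of neurons (-1.76), Gstm3, a glutathione transferase (-1.72), S100a13, a calcium-binding protein (-1.71), Pdcl2, a phosducin-like protein (-1.68), and Polh, the translesion DNA polymerase eta (-1.45). Cd68, a lysosomal glycoprotein of macrophages (-1.73), Jag1, a Notch ligand (-1.45), and Tmem40 (-1.45) had a donor reading in between. Another probe set gave -0.15 for Jag1, with overlapping groups, and -0.61 for Gstm3, and neither passed. Other probe sets of Dner (-2.24), Polh (-0.83) and Tmem40 (-1.56) did pass. Of the 48 iPSC clones, 21 read below all NT-ESC lines for Dner and 15 above them all. These counts were 14 and 26 for S100a13, 8 and 27 for Gstm3, and 9 and 27 for Polh. They were 3 and 37 for Pdcl2, 1 and 33 for Fxyd6, and 0 and 47 for Cd68. For Jag1 and Tmem40 all 48 clones read above the NT-ESC lines. ESC-1 and ESC-4 both read closer to NT-ESC than ESC-2 and ESC-3 did for all of these genes but Jag1, which was highest in ESC-1, and Polh, which was highest in ESC-4. All 9 calls were lost without NT-6, with adjusted p between 0.0727 and 0.18, and all but that of Tmem40 without NT-4. All but that of Pdcl2 were lost without NT-5, and those of Fxyd6, Dner, Gstm3, S100a13, Pdcl2, Jag1 and Polh without ESC-2. Those of the same genes other than Jag1 were lost without ESC-3, and those of Gstm3, Jag1 and Polh without ESC-4.

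For a few genes the donor lay on the ESC side. Cxcl12, a chemokine of stromal cells, read -0.28, -0.51 and -0.33 in NT-ESC, 1.78 in Adeno-2, and 1.33, 1.22, 1.17 and 0.90 in ESC (difference -1.52, SE 0.11, adjusted p = 0.00144). Every NT-ESC line was below every ESC line, while the donor was above them all. Stra8, a retinoic acid target needed for entry into meiosis, read 0.96, 1.15 and 0.87 in NT-ESC, 0.06 in Adeno-2, and -0.22, -0.42, -0.40 and 0.16 in ESC (difference 1.21, adjusted p = 0.0088). The donor fell inside the ESC range, and the NT-ESC lines exceeded all 48 iPSC clones. The Stra8 call was lost without NT-4 (adjusted p = 0.0567) and without NT-6 (adjusted p = 0.0506). B3galt6, an enzyme of the glycosaminoglycan linker, read -3.61, -3.23 and -3.11 in NT-ESC, -1.99 in Adeno-2, and -0.88, -1.39, -1.81 and -1.29 in ESC (difference -1.97). The donor was below every ESC line but nearer to them than to NT-ESC. Its other probe set gave 0.18 and did not pass, so the B3galt6 difference rests on 1 probe set.

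**Figure D3:**
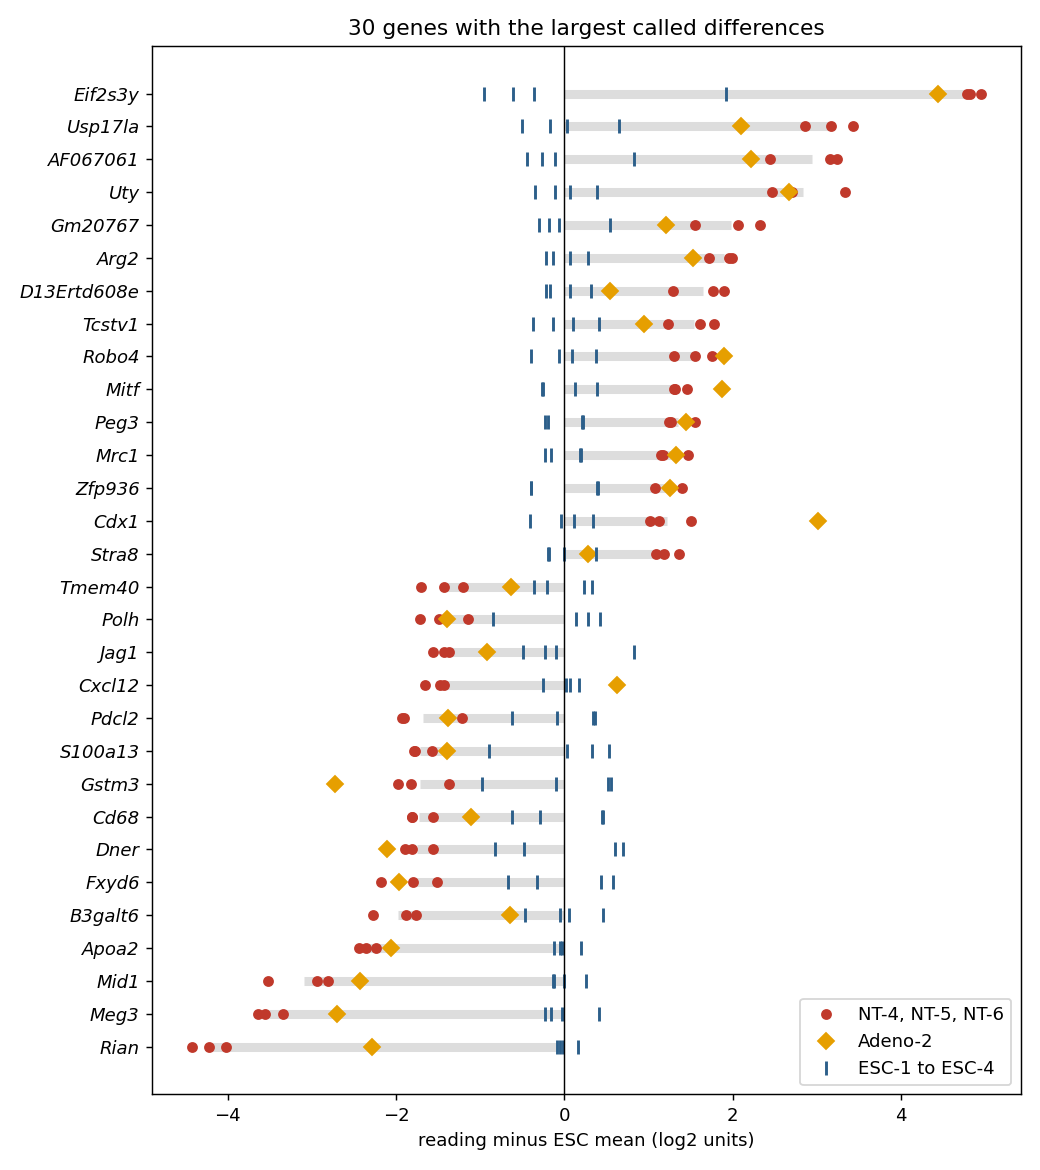
Readings of the 30 genes with the largest passing differences, as log2 distance from the ESC mean (x): red points are NT-4, NT-5 and NT-6, the yellow diamond is Adeno-2 and blue ticks are ESC-1 to ESC-4, with a grey bar to the NT-ESC mean. Adeno-2 lies on the NT-ESC side for 19 genes, and Cxcl12 and Stra8 are among the 4 where it lies on the ESC side.

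Few genes of fibroblasts and feeder cells passed, but nearly all had their lower mean in NT-ESC. Of 28 measured, 2 passed downward and 0 upward, 7.14% against 3.96% of all genes, and 11 were lower and 0 higher without overlap, where 20.8% of all genes did not overlap (12.4% higher and 8.44% lower). The median difference was -0.47, and 2 of the 28 differences were positive. Lox, an enzyme that cross-links collagen, read 1.28, 1.48 and 1.46 in NT-ESC, 3.21 in Adeno-2, and 3.14, 2.78, 2.81 and 2.42 in ESC (difference -1.38, adjusted p = 0.00717). Col3a1, a fibrillar collagen, read 0.79, 0.75 and 0.77 in NT-ESC, 3.21 in Adeno-2, and 1.88, 2.06, 1.82 and 1.42 in ESC (difference -1.03, adjusted p = 0.012). For both genes the NT-ESC lines lay below all 48 iPSC clones and the donor above all ESC. A dim probe set of Lox gave -0.20 and did not pass, while a further probe set of Lox (-1.71) and of Col3a1 (-1.13) passed. The mean of the list was 0.83 to 0.86 in NT-ESC, 2.27 in Adeno-2, 1.98 in ESC-1, 1.31 and 1.30 in ESC-2 and ESC-3, and 0.83 in ESC-4. Over 7 defining fibroblast markers the mean was -0.51 to -0.42 in NT-ESC, 1.23 in Adeno-2 and -0.48 to 1.42 in ESC. ESC-4 was thus at the NT-ESC level, and the part of feeder cells in these differences, and in that of Cxcl12, was not tested. Without ESC-4 the count was 8 lower, without ESC-1 it was 7 lower and 1 higher, without NT-5 or NT-6 it was 1 lower, and without NT-4 it was 0. Without NT-4 the adjusted p of Lox was 0.0525, and that of Col3a1 was 0.056 to 0.0735 without any 1 NT-ESC line.

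Among 17 measured targets of the p53 tumour suppressor, 5 were lower in NT-ESC and 0 higher, 29.4% against 3.96% of all genes, with a median difference of -0.16. Cdkn1a, the cell-cycle inhibitor p21, read 2.70, 2.75 and 2.68 in NT-ESC, 2.95 in Adeno-2, and 3.02, 3.35, 3.33 and 3.12 in ESC (difference -0.49, adjusted p = 0.0363). Fas, a death receptor, read -2.21, -2.03 and -1.84 in NT-ESC, -0.34 in Adeno-2, and -1.48, -1.43, -1.39 and -1.40 in ESC (difference -0.61, adjusted p = 0.0192). The NT-ESC lines were lowest for both, but Adeno-2 was between the groups for Cdkn1a and far above both for Fas. The death receptor Tnfrsf10b (-0.61), the cell-death gene Bbc3 (-0.47) and the growth-arrest gene Gadd45a (-0.46) also passed. Another probe set of Tnfrsf10b gave -0.55 and did not pass, and another of Cdkn1a gave -0.48 and passed. All 5 calls depended on the arrays used: 7 members were lower and 1 higher without ESC-1, and 6 were lower without ESC-4, but 1 without NT-6 and 0 without NT-4, NT-5, ESC-2 or ESC-3, and 0 with ESC-2 and ESC-3 averaged.

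Of 18 immediate early genes, 2 were lower and 0 higher, 11.1% of the list against 3.96% of all genes, with a median difference of -0.17. Ier3, an early growth-factor response gene, read 0.45, 0.65 and 0.46 in NT-ESC, 1.35 in Adeno-2, and 1.26, 1.95, 1.97 and 1.68 in ESC (difference -1.20, adjusted p = 0.0136). Fosb, a subunit of the AP-1 transcription factor, read 1.38, 1.39 and 1.13 in NT-ESC, 0.13 in Adeno-2, and 1.84, 1.92, 1.86 and 1.71 in ESC (difference -0.54). The donor fell beside the ESC lines for Ier3 and below every line for Fosb. Leaving out any NT-ESC line gave 0 calls in this list, and leaving out ESC-2 or ESC-3 gave 1 lower. Without ESC-4 there were 4 lower, and without ESC-1 there were 4 lower and 1 higher.

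Germ cell and meiosis genes were higher for 3 of 19 members and lower for 0, 15.8% of the list against 3.96% of all genes, with a median difference of 0.28. Besides Stra8 these were Taf7l, a testis subunit of the general transcription machinery, at -0.36, -0.71 and -0.60 in NT-ESC, -1.07 in Adeno-2, and -1.79, -1.47, -1.29 and -1.50 in ESC (difference 0.96). Rhox5, an X-linked homeobox gene, read 2.62, 2.54 and 3.14 in NT-ESC, 3.10 in Adeno-2, and 2.11, 2.01, 2.10 and 2.15 in ESC (difference 0.67, adjusted p = 0.0416). The donor reading stood above every ESC line for both. Without NT-4 or without NT-6, 0 members of the list passed, and without NT-5, ESC-2 or ESC-3, 2 were higher. Without ESC-4 there were 4 higher, and without ESC-1 there were 6 higher and 2 lower.

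Few core pluripotency genes passed the adjusted p of 0.05. Of 33 measured, 1 passed, or 3.03%, beside 3.96% over all genes. This was Zfp42, the marker gene also called Rex1, at 4.77, 4.82 and 4.82 in NT-ESC, 4.54 in Adeno-2, and 4.35, 4.23, 4.22 and 4.50 in ESC (difference 0.48, SE 0.09, adjusted p = 0.0262). At an unadjusted p of 0.05, 6 members were higher and 6 lower, where 12.5% of all genes were higher and 9.13% lower. Without overlap 4 were higher and 6 lower, where 12.4% of all genes were higher and 8.44% lower. Without ESC-1, 4 members were higher and 7 lower, against 22.4% of all genes. There were 0 calls without any NT-ESC line, ESC-2 or ESC-3. Pou5f1 averaged 4.88 in NT-ESC and 4.84 in ESC (difference 0.04, SE 0.08, adjusted p = 0.79), and Nanog 5.07 in NT-ESC and 5.09 in ESC (adjusted p = 0.924). Sox2 differed by -0.23 (adjusted p = 0.16, and 0.0383 without ESC-1) and Klf4 by -0.11 (adjusted p = 0.44). Myc read 1.57, 1.76 and 1.86 in NT-ESC, 2.52 in Adeno-2, and 1.96, 0.66, 0.62 and 0.62 in ESC, so that ESC-1 alone among the ESC read above the NT-ESC lines (difference 0.76, adjusted p = 0.217). Without ESC-1 the Myc difference was 1.10 and passed (adjusted p = 0.000602).

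Genes of the postimplantation epiblast passed for 2 of 15 members, 13.3% against 3.96% of all genes, both upward. Tcf15, a basic helix-loop-helix gene of primed cells, read 1.46, 1.26 and 1.36 in NT-ESC, 1.19 in Adeno-2, and 0.96, 0.07, -0.10 and 0.13 in ESC (difference 1.09, adjusted p = 0.0436). Fgf5, a growth factor of the epiblast, was higher by 0.43 (adjusted p = 0.0276), with Adeno-2 at -1.76, below every line of both groups. The list gave 0 calls without any NT-ESC line, ESC-2 or ESC-3, and 7 higher without ESC-1. Bmp4, a signal for mesoderm and germ cells, read 0.13, 0.34 and -0.02 in NT-ESC, 0.99 in Adeno-2, and -1.53, -0.95, -0.85 and -0.83 in ESC (difference 1.19, adjusted p = 0.0167), and was the 1 of 15 mesoderm genes that passed, 6.67% against the same 3.96%. Lama1, a laminin chain of basement membrane, was the 1 of 18 primitive endoderm genes that passed, 5.56% of the list: it read 0.03, 0.17 and -0.03 in NT-ESC, 1.00 in Adeno-2, and 0.90, 1.46, 1.49 and 1.30 in ESC (difference -1.23, adjusted p = 0.00823). The Bmp4 call was lost without any 1 NT-ESC line (adjusted p 0.0705 to 0.0816), and the Lama1 call without NT-4 (adjusted p = 0.0567) or NT-6 (adjusted p = 0.0595). Without ESC-1, when 22.4% of all genes passed, 3 mesoderm genes were higher and 1 lower, and 2 primitive endoderm genes were higher and 1 lower.

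Lmo2, a transcriptional adaptor of blood precursors, read -0.67, -0.87 and -0.77 in NT-ESC, -0.87 in Adeno-2, and -1.47, -1.54, -1.69 and -1.64 in ESC (difference 0.82, adjusted p = 0.00653). It was the only 1 of 22 haematopoietic genes that passed, 4.55% against 3.96% of all genes, and it did so in all fits that left out 1 array. Without ESC-1, 3 haematopoietic genes were higher and 1 lower, against 22.4% of all genes. Trib3, a pseudokinase induced by amino acid shortage (0.65), and Slc7a5, a large neutral amino acid transporter (0.49), were 2 of 20 in the amino acid and ER stress list, 10% against the same 3.96%. Both stood high in the donor too, at 1.34 for Trib3 and 3.61 for Slc7a5. Both calls were lost without any NT-ESC line, ESC-2 or ESC-3 (adjusted p 0.059 to 0.163), and without ESC-1 4 members were higher and 3 lower.

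With limma, 0 genes passed in 9 of the 24 lists. At an unadjusted p of 0.05, 21.7% of all genes differed, 12.5% higher and 9.13% lower. At that p, 5 DNA methylation and Polycomb genes of 16 were higher and 0 lower, and Dnmt3a, a de novo methyltransferase, came nearest (0.86, adjusted p = 0.0591). On the same footing 3 interferon and MHC genes were higher and 2 lower of 18, 2 glycolysis genes higher and 4 lower of 24, and 3 proliferation genes higher and 6 lower of 24. Cholesterol synthesis gave 2 higher and 1 lower of 14, neuroectoderm 2 higher and 1 lower of 11, and trophoblast 0 higher and 1 lower of 15. Without ESC-1, when 22.4% of all genes passed, 4 DNA methylation and Polycomb genes passed upward and 1 downward, 4 interferon and MHC genes upward and 1 downward, and 1 proliferation gene upward and 6 downward. In the same fit 1 glycolysis gene passed upward and 6 downward, 3 neuroectoderm genes upward and 1 downward, 2 trophoblast genes upward and 1 downward, and 1 cholesterol synthesis gene each way. Without ESC-4, 1 gene each of the DNA methylation and Polycomb, glycolysis, proliferation and interferon and MHC lists passed upward, and 1 of the last downward. With all arrays no locus near the KH2 targeting passed: Gt(ROSA)26Sor differed by 0.17 (adjusted p = 0.5), Thumpd3 by 0.26 (adjusted p = 0.087) and Col1a1, a collagen gene also on the fibroblast list, by -0.65 (adjusted p = 0.113). Thumpd3 passed without ESC-1 (0.23, adjusted p = 0.0382), and Col1a1 passed without ESC-1 (-0.49, adjusted p = 0.0431) and without ESC-4 (-0.81, adjusted p = 0.0312).

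**Figure D4:**
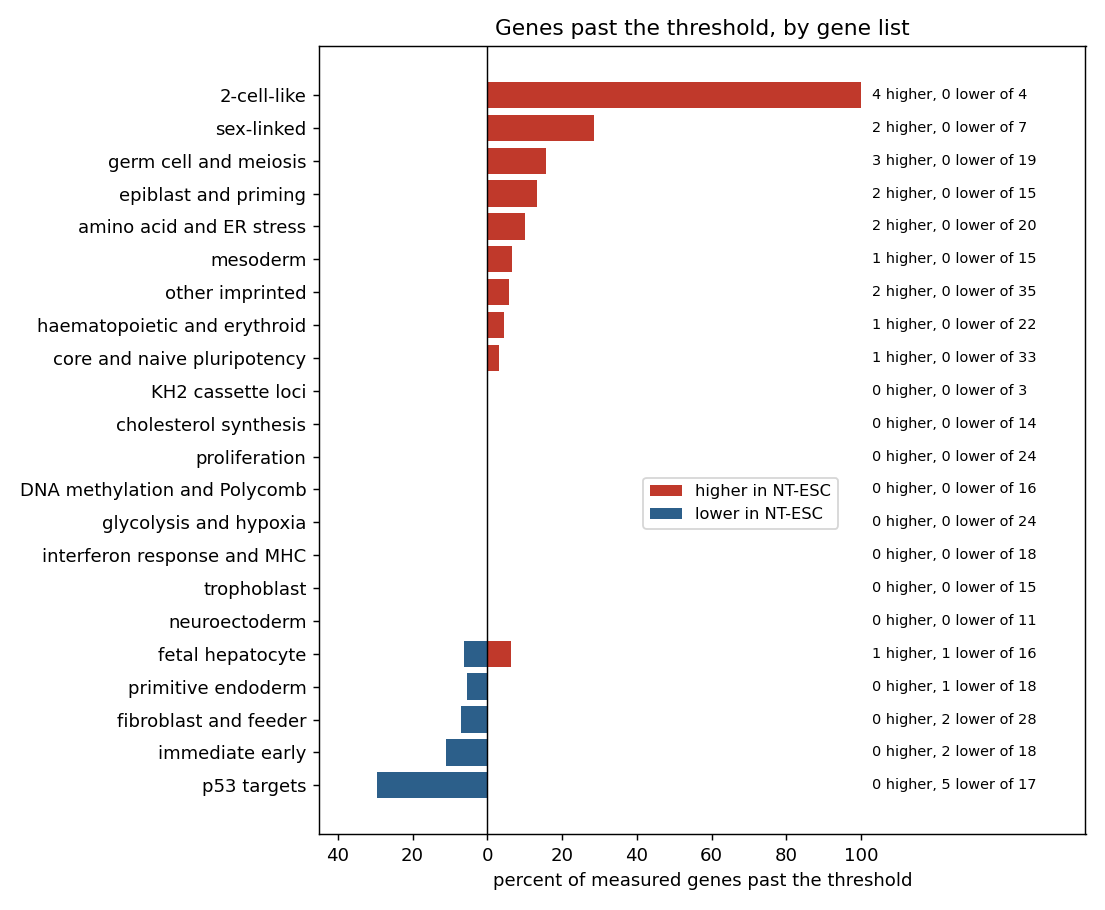
Percent of the measured genes of each list that passed the adjusted p of 0.05 (x), higher in NT-ESC to the right (red) and lower to the left (blue), with the counts beside each bar. The 4 measured 2-cell-like genes all passed upward and 5 of 17 p53 targets passed downward; the 2 Dlk1-Dio3 lists, of 2 genes and 1 gene, are not drawn.

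The genes by which NT-ESC differed most from their own donor are given as values only, since 1 array allows no test. Mgp, matrix Gla protein, read 1.27, 1.20 and 1.63 in NT-ESC, 4.70 in Adeno-2, and 1.66, 3.42, 3.41 and 3.10 in ESC. Ereg, an EGF-family growth factor, averaged -1.01 in NT-ESC and was 1.55 in Adeno-2, and Col6a1, a collagen, averaged -0.62 in NT-ESC and was 1.95 in Adeno-2. Gzme, Rhoj, Ccdc80, Col1a1 and Vip completed the 8 that were highest in the donor, and Rhoj (-0.95, adjusted p = 0.0188) and Ccdc80 (-1.21, adjusted p = 0.0283) were also lower in NT-ESC than in ESC. The mean of the fibroblast and feeder list was likewise higher in the donor, 2.27 against 0.83 to 0.86 in NT-ESC. The part of feeder cells in the differences from the donor was not tested. In the other direction, Cd274, the immune ligand PD-L1, read 1.24, 1.05 and 1.09 in NT-ESC, -0.76 in Adeno-2, and 0.25, 0.11, 0.07 and -0.66 in ESC. It was higher in NT-ESC than in ESC (difference 1.18, adjusted p = 0.0226). The calls of Rhoj, Ccdc80 and Cd274 were lost without any NT-ESC line, ESC-2 or ESC-3 (adjusted p 0.0538 to 0.137). Another probe set of Ccdc80 gave -0.45 and did not pass. Another of Gzme gave -1.09 and passed with all arrays (limma over every probe set, adjusted p = 0.0161). Bnip3, a mitochondrial gene induced by hypoxia, averaged 4.50 in NT-ESC and was 3.07 in Adeno-2, with 3.85 in ESC-1 and 4.88 to 4.94 in the other ESC. Gbp7, A2m, Pygl, D430019H16Rik, Gbp3 and Defa31 were the other 6 lower in the donor, and NT-ESC against ESC did not pass for any of these 6 with all arrays. Without ESC-1, calls were gained by Mgp, Gzme, Col6a1, Ereg, Vip and Bnip3, lower in NT-ESC, and by A2m, D430019H16Rik and Gbp3, higher (adjusted p 0.000447 to 0.0305). Without ESC-4 they were gained by Gbp7 and Defa31, higher (adjusted p 0.034 and 0.0385).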

How the data were processed

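RNA of 3 NT-ESC lines, their donor clone Adeno-2 and 4 ESC lines was measured on Affymetrix arrays, 1 per line, from biotinylated cRNA, per the labels. The authors deposited log2 values of 22626 probe sets. The base of 2 and the centring near 0 were inferred from the values. How background was corrected and probes were summarised, and in which batches arrays were scanned, is not stated in the labels or the file. No detection calls came with the values, so readings near the bottom of the scale may be background. The number of arrays limits the precision.

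Probe sets were named through the platform's gene identifiers and RefSeq symbols (GRCm38.p6): 18003 matched 1 gene, 287 matched several and 4336 matched no gene. A gene with several probe sets was represented by the brightest on average across the series, which gave 11807 genes. NT-ESC were compared with ESC by limma 3.58.1 in R 4.3.3 (lmFit, eBayes, 2-sided, Benjamini-Hochberg over all genes, threshold 0.05), with no covariates and Adeno-2 outside the fit. Genes named were the 15 largest passing differences in each direction without overlap between groups, up to 4 passing members of each of 24 lists, the 8 in each direction by which Adeno-2 lay farthest outside the NT-ESC readings, and the reprogramming factors, sex-linked, KH2 and Dlk1-Dio3 genes whatever their p. The p53 target Gadd45a, the probe sets beyond the first and the chromosome 13 stretch were added after their values were seen. Of the listed genes, 83 were not measured here. The members, lists and tests were chosen with earlier results of these data known.

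Alternatives were quantile normalization, median centring, a filter on low signals, the mean of probe sets, every probe set alone, eBayes with trend and robust settings, 1 fit over more arrays, a replicate block, leaving out each array, and, chosen after seeing the data, ESC-2 and ESC-3 as 1 sample. The fit was tested on simulated data with 200 of 11807 genes changed in NT-ESC minus ESC: it recovered 28% at a log2 difference of 0.5, 85.5% at 1 and 98% at 2. False calls numbered 4, 9 and 14. The simulated noise was independent between arrays, unlike the closeness of ESC-2 and ESC-3 and the distance of ESC-1, so recovery in the real data may differ. Promoter sequences were read from RefSeq on GRCm38.p6.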

Additional observations from a re-analysis of the deposited data

Results flagged for a closer look

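Among 81 named genes, 7 readings of single ESC lines lay apart from the other 3 by a gap above Dixon's critical value, as a share of the group's range, and chance sets apart about 1 group in 20. The lines were ESC-1 in 4 genes and ESC-4 in 3. Myc averaged 1.73 in NT-ESC and read 1.96 in ESC-1, where the other ESC read 0.62 to 0.66. Xist averaged 0.63 in NT-ESC and read 0.86 in ESC-1, where the other ESC read 0.37 to 0.43. D430019H16Rik averaged 0.02 in NT-ESC and read -0.31 in ESC-1. Bnip3 averaged 4.50 in NT-ESC and read 3.85 in ESC-1, where the other ESC read 4.88 to 4.94. Slc7a5 averaged 3.49 in NT-ESC and read 3.26 in ESC-4. Ccdc80 averaged -1.55 in NT-ESC and read -1 in ESC-4. Gbp7 averaged 1.81 in NT-ESC and read 0.27 in ESC-4, where the other ESC read 1.27 to 1.42, so that this reading alone lay on the far side from NT-ESC. The readings of Myc, Xist and Bnip3 in ESC-1 went past the NT-ESC mean.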

How the results depend on the processing

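Of 1307 values recomputed under the alternatives, 1018 kept their direction and their side of the threshold, 233 lost the call, 34 gained one and 22 changed sign. The count of 468 genes was 521 with quantile normalization, 483 with median centring, 523 with the filter on low signals, 526 with the mean of probe sets and 547 with trend and robust settings. It was 1221 in 1 fit over all 59 arrays, 1516 in such a fit less the 3 NT-ESC of other donors, 973 over every probe set alone (of 22626 rather than 11807) and 130 with ESC-2 and ESC-3 averaged. Leaving out 1 array gave 44 to 2650 genes, and 13 to 30 of the 30 with the largest differences. With the replicate block 166 genes passed. The numbers do not pair the lines, whose same-numbered deviations correlated at 0.103, 0.195 and -0.083, and the cause of this and of the other shifts was not tested. Signs changed between probe sets of 1 gene: B3galt6 0.176, Usp29 -0.346, Xist -0.514 and -0.0618, Kdm5d -0.23, Eif2s3x 0.0864, Kdm5c -0.425 and Kdm6a 0.0729. The mean of probe sets turned Xist (-0.154), Kdm5d (-0.026), Eif2s3x (0.0126) and Kdm5c (-0.109). Median centring turned Eif2s3x (0.0212) and Nanog (0.0101), and the replicate block Eif2s3x (0.005) and Nanog (0.029). Leaving out 1 array gave -0.00167 to 0.111 for Kdm5d, -0.028 to 0.005 for Eif2s3x, -0.003 to 0.0627 for Pou5f1 and -0.0823 to 0.0408 for Nanog; none of the sex-linked genes or factors in this list passed in either sign. The median difference of all genes was 0.03 as deposited, 0.03 after quantile normalization and 0.06 after median centring. Signal over background cannot be read from these values.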
